A study of Mus musculus with 6 samples.

Results

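Messenger RNA of 9 cytotoxic effector genes was compared between thymic iNKT1 cells with and without a targeted Tgfbr2. The genes were chosen by name, with earlier results of these data known. They were the granzymes Gzma, Gzmb and Gzmk, the pore protein gene Prf1, and the death ligand genes Fasl and Tnfsf10. The granule or lysosome genes Ctsw, Nkg7 and Srgn completed the list. All 9 were present among the 17985 genes of the deposited table, and 8 of them had a mean of at least 1 CPM (reads per 1000000 reads of the library) over the 6 libraries and entered the test. Gzmk did not, and is given by its values alone.

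iNKT1 cells are the T-bet-positive subset of invariant natural killer T cells, which see lipid antigens on CD1d, and were taken here from the thymus of C57BL/6 mice. Control mice (Ctrl) had the genotype Tbx21CreTg;Rosa26-LSL-YFP+/+, that is, a Tbx21-driven Cre transgene with a yellow fluorescent reporter that Cre switches on. The other group (cKO) carried Tgfbr2F/F in addition, loxP-flanked alleles of a TGF-beta receptor subunit gene, so both groups carried Cre and the reporter and neither was treated. Deletion follows Tbx21-driven Cre and is therefore limited to cells that express Tbx21 or descend from such cells. Age and sex of the mice, and whether a library came from 1 mouse or a pool, are not given in the sources used here. Each group had 3 libraries, which the submitters describe as independent, so p-values measure the spread between these libraries.

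Cytotoxic lymphocytes kill target cells by releasing granules that hold perforin, which forms pores, and granzymes, which are serine proteases that enter through them. Serglycin, the product of Srgn, is the proteoglycan that packs these proteins in the granule. A second route uses the TNF-family ligands FasL and TRAIL, which trigger caspases through death receptors on the target. iNKT1 cells carry much of this machinery at rest, and TGF-beta is known to repress several of these genes in conventional T cells.

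Library totals ran from 28832779 to 68092478 reads of 75 bases. A read was worth 0.0147 to 0.0347 CPM, and the 8 tested genes rested on 839 to 153500 reads per library. The replicate 3 libraries of both groups stood apart: 4406 (Ctrl) and 4590 (cKO) genes were at 0 there, against 0 to 5 genes in the other 4 libraries. Results are therefore given by replicate number, and the replicate number was also used as a block. Tgfbr2 itself was at 425 to 461 CPM in Ctrl and 258 to 290 CPM in cKO (log2 difference -0.71, limma adjusted p 0.0207, which passed in only 1 of 6 fits that left out 1 library, that without cKO replicate 3, with a range from 0.0299 to 0.155). With the replicate block the limma adjusted p of Tgfbr2 was 0.00160. Apart from the fits that left out 1 library, Tgfbr2 passed in 12 of 13 alternative fits and missed the threshold under edgeR without the block (edgeR adjusted p 0.0620). In the authors' deposited table it had a log2 fold change of -0.64 and an adjusted p of 0.373, and was not marked as lower. All Tgfbr2 values are over the whole gene and not the loxP-flanked part alone. In bulk RNA, fewer cells of a type and less RNA per cell cannot be told apart.

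Of the 8 tested genes, 0 passed a limma adjusted p of 0.05 with group as the only term, where 0.663% of 15691 tested genes did. With the replicate block 2 passed, both lower in cKO (Ctsw and Tnfsf10), where 1.64% of all tested genes passed as lower and 2.87% in either direction. At an unadjusted limma p of 0.05, 4 of the 8 passed, against 6.02% of all tested genes, and the same 4 genes, Ctsw, Tnfsf10, Fasl and Gzma, were lower in every cKO library than in every Ctrl library, against 7.1% of all tested genes. No member was higher without overlap, against 3.89%. Because the genes were chosen with earlier results of these data known, the shares set beside them are descriptive and not a test. DESeq2 called 2 (background 3.52%), edgeR by quasi-likelihood 0 (0.261%), or 2 once the block was added (2.99%), and limma-voom 0 (0.389%). The DESeq2 share counts as not called 3042 of the 15691 genes to which DESeq2 gave no adjusted p, none of them among the 8. In replicates 1 and 2 alone limma called 1 (Ctsw; background 1.72%), and the authors' deposited adjusted p-values called 1 (Ctsw; 0.801%). The median log2 difference of the 8 genes was -0.18, beside -0.038 over all tested genes.

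**Figure D1:**
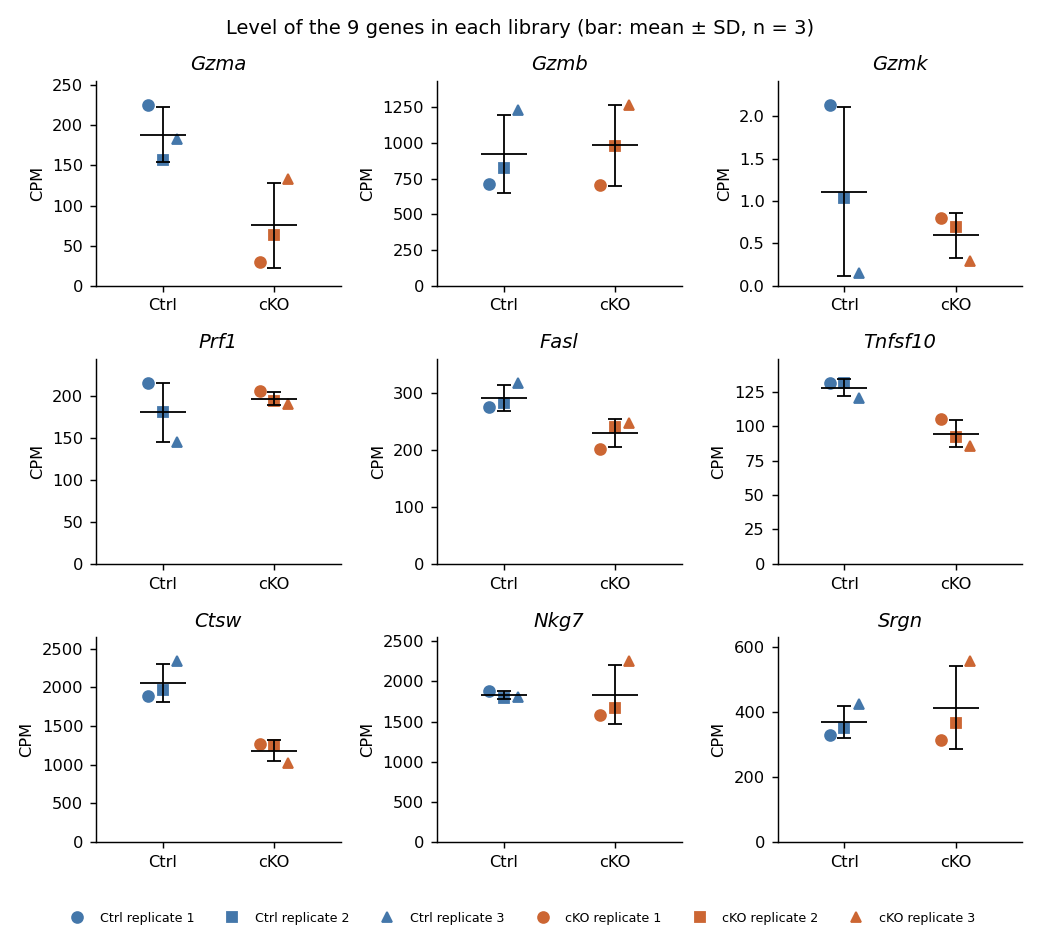
CPM (linear axis from 0) of the 9 genes in the 3 Ctrl and 3 cKO libraries. Points are libraries, marked by replicate number, and bars are the mean and SD. For Gzma, Fasl, Tnfsf10 and Ctsw all cKO points lie below all Ctrl points, whereas for the other 5 genes the groups overlap.

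Ctsw (ENSMUSG00000024910, chromosome 19, 5465240 to 5468498, minus strand) encodes cathepsin W, a papain-like cysteine protease found mainly in NK and CD8 T cells. In replicate order, the Ctrl libraries held 1882, 1959 and 2341 CPM of it and the cKO libraries 1267, 1258 and 1026 CPM. The cKO values were all under the lowest Ctrl value. Means were 2061 ± 246 and 1184 ± 137 CPM (SD, n = 3 each) and cKO was at 57.4% of the Ctrl mean. The log2 difference was -0.80 with a standard error of 0.13, and the limma adjusted p was 0.0593 without the block and 0.00680 with it. By pair the log2 difference was -0.57 and -0.64 in replicates 1 and 2 and -1.19 in replicate 3. In the authors' deposited table Ctsw had a log2 fold change of -0.75 and an adjusted p of 0.00114, and it was the only one of the 9 genes marked as lower there. Its exons share 9 bases with those of Fibp, which lies on the opposite strand and had a mean of 77.8 CPM.

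Tnfsf10 (ENSMUSG00000039304, chromosome 3, 27317028 to 27342427, plus strand) encodes TRAIL, a membrane ligand of death receptors. Its Ctrl libraries held 131, 131 and 121 CPM and its cKO libraries 105, 92.3 and 85.8 CPM, in replicate order. The groups did not overlap. Means were 128 ± 6.10 and 94.4 ± 9.80 CPM (SD, n = 3 each), or 73.9% of the Ctrl level, with a log2 difference of -0.44 and a standard error of 0.10. The limma adjusted p was 0.239 without the block and 0.0351 with it. After TMM scaling it was 0.236 without the block and 0.0527 with it. The gene was called by edgeR with the block (edgeR adjusted p 0.0498) and by DESeq2 without it (DESeq2 adjusted p 7.9e-06). The call thus depended on the block and the method as well as the scaling. Pair differences were -0.32, -0.50 and -0.49 on the log2 scale.

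Fasl (ENSMUSG00000000817, chromosome 1, 161780689 to 161788495, minus strand) encodes Fas ligand, the other death ligand. Its level was 275, 282 and 318 CPM in the Ctrl libraries and 201, 241 and 247 CPM in the cKO libraries, in replicate order. The ranges were separate in this gene too, with means of 292 ± 22.8 and 230 ± 24.8 CPM (SD, n = 3 each), or 78.7% of the Ctrl level. The log2 difference of -0.35 had a standard error of 0.11 and did not pass with limma, whose adjusted p was 0.538 without the block and 0.0668 with it. As follows from the separate ranges, both death ligand genes were lower in cKO in all 3 pairs (Fasl by -0.45, -0.23 and -0.36 on the log2 scale).

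Gzma (ENSMUSG00000023132, chromosome 13, 113093825 to 113100979, minus strand) encodes granzyme A, a tryptase. In replicate order it had 226, 157 and 182 CPM in the Ctrl libraries, against 29.1, 63.7 and 133 CPM in those of cKO. All cKO values were lower than all Ctrl values, but they spread over a far wider range than those of Ctrl. Means were 188 ± 34.8 and 75.2 ± 52.8 CPM (SD, n = 3 each). The log2 difference of -1.55 was the largest of the 8 in size, and its standard error was 0.50 (limma adjusted p 0.549, or 0.224 with the block). It was -2.91 in the replicate 1 pair, -1.29 in the replicate 2 pair and -0.45 in the replicate 3 pair, so cKO libraries held 12.9%, 40.6% and 72.8% of the paired Ctrl level. Without cKO replicate 1 the log2 difference was -1.01, and without cKO replicate 3 it was -2.09 with a limma adjusted p of 0.0786.

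Gzmb (ENSMUSG00000015437, chromosome 14, 56258856 to 56262260, minus strand) encodes granzyme B, the protease that cleaves after aspartate and activates caspases. In replicate order the values were 711, 827 and 1232 CPM for Ctrl, and 703, 979 and 1269.95 CPM for cKO. The libraries followed their replicate number rather than their group, and the groups overlapped almost entirely. Means were 923 ± 273 and 984 ± 283 CPM (SD, n = 3 each), with a log2 difference of 0.09. Its 95% interval, which like those below is limma's for the single gene, ran from -0.56 to 0.74, and from -0.08 to 0.26 with the block, so that a change of the size of Ctsw lay outside both.

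The ratio of Gzmb to Gzma reads within a library, 1 of 3 ratios chosen after values of these data were known, was 3.15, 5.26 and 6.76 in Ctrl replicates 1 to 3 and 24.2, 15.4 and 9.56 in cKO replicates 1 to 3. The ratio was higher in every cKO library than in every Ctrl library. Of 2 further ratios, Ctsw to Nkg7 was lower in every cKO library (0.801, 0.756 and 0.455, against 0.999, 1.09 and 1.29 in Ctrl), whereas Fasl to Prf1 overlapped (0.977, 1.23 and 1.29, against 1.27, 1.55 and 2.18). With 3 libraries a group, an exact two-sided permutation test cannot give a p under 0.1, and none is reported for these ratios.

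The promoters of Gzma and Gzmb are shown because their values lay differently between the groups, separate for Gzma and overlapping for Gzmb, a difference between the genes that was not tested. The 250 bases before the start of each gene are RefSeq's, on the build GRCm38.p6, written 5′ to 3′ on the strand of the gene. For Gzmb the RefSeq start lies 74 bases before the start in the deposited table, and for Gzma 2 bases before it. Capitals mark exact matches on either strand to the searched motifs, which were the SMAD elements GTCTAGA and CAGACA, the T-box half-site GGTGTGA, the RUNX site TGTGGTT, the AP-1 site TGANTCA and the ETS core CCGGAAG.
Gzma, chr13:113100982-113101231, minus strand: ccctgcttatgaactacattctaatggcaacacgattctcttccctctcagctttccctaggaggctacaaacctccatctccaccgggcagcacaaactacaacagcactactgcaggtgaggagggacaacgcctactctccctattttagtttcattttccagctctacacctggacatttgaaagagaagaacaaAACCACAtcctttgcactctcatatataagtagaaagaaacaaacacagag
Gzmb, chr14:56262335-56262584, minus strand: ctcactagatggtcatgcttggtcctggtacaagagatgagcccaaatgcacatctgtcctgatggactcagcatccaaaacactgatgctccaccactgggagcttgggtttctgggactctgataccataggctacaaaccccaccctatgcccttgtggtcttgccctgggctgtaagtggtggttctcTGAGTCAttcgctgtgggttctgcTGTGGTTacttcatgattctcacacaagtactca

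Gzma held 1 match, to the RUNX site, which began 51 bases before the start. Gzmb held 2, to the AP-1 site (58 bases before the start) and the RUNX site (34 bases before the start), with no overlap between them. The RUNX site was present in 4.4% and the AP-1 site in 6.75% of 32851 such windows. Promoters of 8 of the 9 genes were in the RefSeq table, and Ctsw was not among them. For Gzmb, Gzmk and Prf1 the bases that follow the RefSeq start were not found in any GENCODE M21 transcript of the gene. Neither death ligand gene held any of these motifs in its window, and nor did Prf1. CAGACA occurred once among the 9 windows of these 8 genes, in 1 of the 2 windows of Srgn, where 17.1% of all windows held it, and GTCTAGA, present in 1.83% of all windows, in none. The T-box half-site GGTGTGA, present in 3.33% of all windows, occurred in Nkg7 (13 bases before the start) and Gzmk (75 bases before it). The RefSeq start of Gzmk lies 44943 bases inside the gene as deposited, so this window is not just upstream of the deposited start. Srgn held the ETS core, present in 6.91% of all windows, 52 bases before the start in the window with CAGACA. Its other window held the RUNX site, 203 bases before a RefSeq start that lies 19694 bases inside the gene as deposited. All of these are letter matches in 1 short window per start and do not show binding.

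Gzmk (ENSMUSG00000042385, chromosome 13, 113171608 to 113225908, minus strand), the granzyme typical of memory T cells, was rare. It had 72, 32 and 8 reads in the Ctrl libraries and 23, 29 and 20 reads in the cKO libraries, or 2.14, 1.04 and 0.151 CPM and 0.798, 0.690 and 0.294 CPM. The replicate 3 libraries were lowest in both groups, and the Ctrl values enclosed the cKO values. Without the filter on low values its log2 difference was -0.30 with a limma adjusted p of 0.99997.

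Prf1 (ENSMUSG00000037202, chromosome 10, 61297836 to 61304263, plus strand) encodes perforin. The 3 Ctrl libraries held 216, 182 and 146 CPM and the 3 cKO libraries 206, 195 and 191 CPM, in replicate order. The cKO values lay inside the Ctrl range. The log2 difference was 0.14 with a 95% interval from -0.21 to 0.49 (-0.09 to 0.37 with the block).

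Nkg7 (ENSMUSG00000004612, chromosome 7, 43437073 to 43438246, plus strand) encodes a small membrane protein of the granule that takes part in its release. Its level was 1884, 1792 and 1810.2 CPM in Ctrl and 1582, 1664 and 2254 CPM in cKO, in replicate order. Values in cKO spread to both sides of the Ctrl values. The means were 1828 ± 48.7 and 1833 ± 367 CPM (SD, n = 3 each), and the log2 difference of -0.014, whose sign depended on the scaling, had a 95% interval from -0.35 to 0.32.

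Srgn (ENSMUSG00000020077, chromosome 10, 62493833 to 62527451, minus strand), the serglycin gene, had 331, 350.4 and 425 CPM in the Ctrl libraries and 315, 368 and 557 CPM in those of cKO, in replicate order. As with Gzmb, the replicate 3 library was highest in either group and the groups overlapped. The log2 difference was 0.13 with a 95% interval from -0.39 to 0.65 (-0.09 to 0.35 with the block). Replicate 3 exceeded the mean of replicates 1 and 2 on the log2 scale by 0.32 in Ctrl and 0.71 in cKO for Srgn, and by 0.68 and 0.61 for Gzmb. For Gzma the same quantity was -0.046 in Ctrl and 1.6 in cKO, and for Ctsw 0.29 and -0.30. The replicate 3 library of Gzma and Ctsw thus stood on different sides of the other libraries, or at different distances from them, in the 2 groups.

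**Figure D2:**
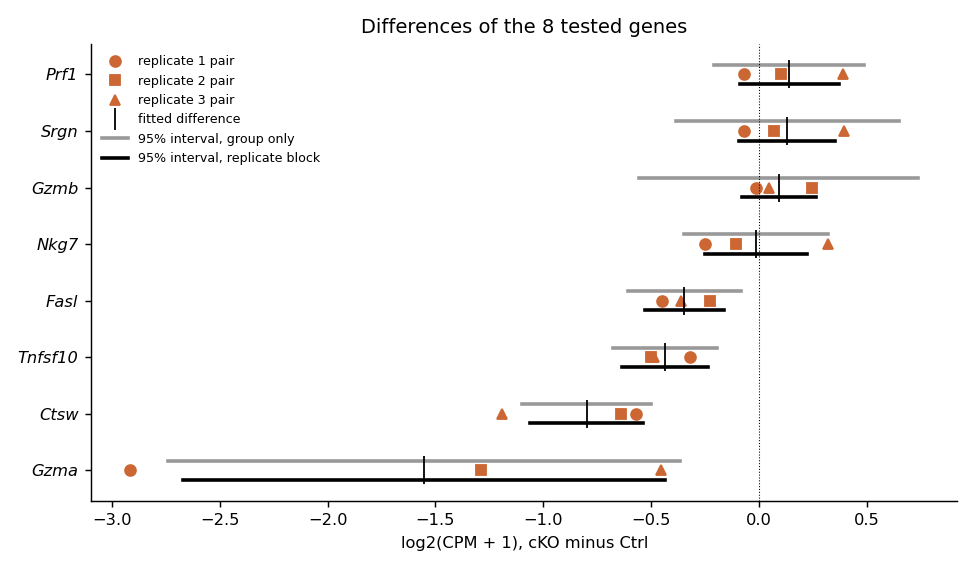
Difference in log2(CPM + 1), cKO minus Ctrl, of the 8 tested genes. Symbols are the same-numbered pairs, ticks the fitted difference, and bars limma's 95% interval for the single gene without (grey) and with (black) the replicate block. Ctsw, Tnfsf10, Fasl and Gzma lie below 0 in all 3 pairs, which follows from their groups not overlapping, with Gzma spread from -2.91 to -0.45.

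Levels of different genes were compared per kilobase of the gene length in the deposited table. In Ctrl the order by mean CPM per kilobase was Nkg7 (2083 ± 55.5), Ctsw (1673 ± 199), Gzmb (651 ± 193), Gzma (215 ± 39.6), Fasl (124 ± 9.73), Prf1 (88.2 ± 17.1), Srgn (80.9 ± 10.9), Tnfsf10 (21.4 ± 1.02) and Gzmk (0.345 ± 0.309; SD, n = 3 each). Prf1 and Srgn were the only neighbours in this order whose Ctrl libraries overlapped. Nkg7 ranked 9 and Ctsw 11 among the 15691 tested genes on this scale, and Gzmb ranked 40. In cKO Gzma was at 85.7 ± 60.1 CPM per kilobase and came after Fasl (98.0 ± 10.6), Prf1 (96.1 ± 3.79) and Srgn (90.7 ± 28.0), and the libraries of these 4 genes overlapped from each to the next. Ctsw at 961 ± 111 and Gzmb at 694 ± 199.8 CPM per kilobase overlapped in cKO, whereas in Ctrl they did not.

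The order depends in part on the gene length. With exonic lengths from GENCODE M21, an alternative added after the data were seen, Srgn came next after Gzma in Ctrl, at 168 CPM per kilobase, ahead of Fasl at 151 and Prf1 at 70.1. In cKO, Gzmb at 685 CPM per kilobase then came ahead of Ctsw at 627. The 9 genes together took 0.566%, 0.568% and 0.657% of the reads in Ctrl replicates 1 to 3 and 0.441%, 0.486% and 0.576% in cKO replicates 1 to 3, lower in each pair but with an overlap between the groups. By far the largest drop in mean CPM was that of Ctsw, from 2061 in Ctrl to 1184 in cKO. Means of Gzma, Fasl, Tnfsf10 and Gzmk were also lower in cKO, and those of Gzmb, Prf1, Nkg7 and Srgn were not.

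**Figure D3:**
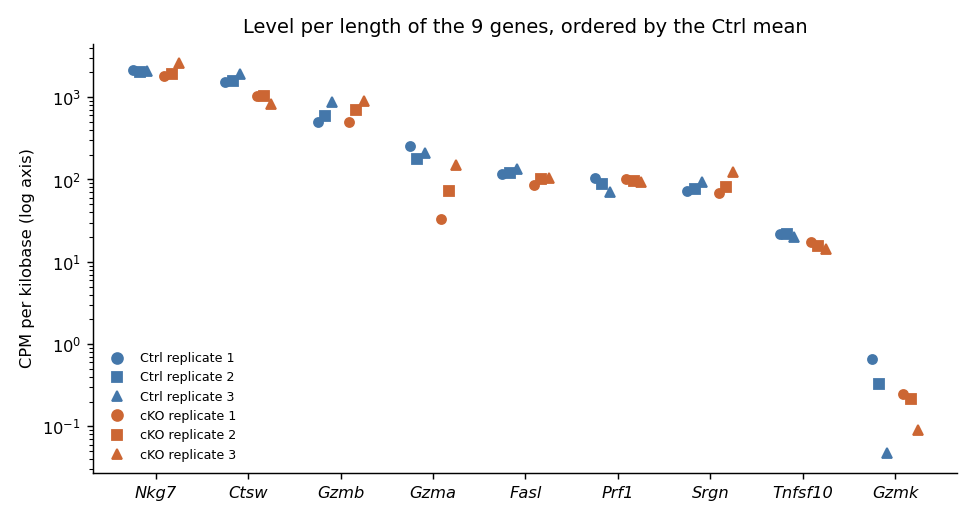
Level of the 9 genes in CPM per kilobase of deposited gene length (log axis), ordered by the Ctrl mean. Points are libraries, coloured by group and marked by replicate number. In Ctrl Ctsw lies above Gzmb and Gzma above Fasl, while in cKO both of these neighbours overlap.

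For each gene, the other tested gene with a mean of at least 5 CPM that was nearest in profile was found among 10140 genes. Likeness was the root-mean-square difference of log2(CPM + 1) over the 6 libraries, each gene centred on its own mean. The nearest to Ctsw was Fam73b (0.11 log2 units), to Tnfsf10 Xxylt1 (0.040), to Fasl Myo1e (0.045), and to Gzmb Baiap2 (0.072). Those of the remaining genes were Zcchc2 for Prf1 (0.044), Magoh for Nkg7 (0.025), Ftl2 for Srgn (0.025) and Zfp946 for Gzmk (0.10). Gzma had no close match, since its nearest gene, Galm, differed by 0.44. None of these 9 genes was nearest to another of them.

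Beyond these genes, 83 genes of the cytotoxic pathway were listed by role, also with earlier results of these data known. Of the 83, 75 were in the table and 71 were tested. Of the 71, 3 rose and 0 fell in cKO with group as the only term (background 0.204% higher and 0.459% lower), and 9 rose and 1 fell with the replicate block (1.24% higher, 1.64% lower). The median log2 difference of the 71 was 0.089, beside -0.038 over all tested genes. Of the 10, 3 were serpins, 3 transcription factors, 2 genes of granule release, 1 a TNF-family ligand and 1 a receptor, and no granule protease or processing gene was among them.

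Among genes of granule trafficking and release, 1 of 20 tested rose without the block and 2 with it, and 0 fell. Of all tested genes, 0.204% rose without the block and 1.24% with it. Stx11, a SNARE protein needed for granule exocytosis, was at 14.0, 16.9 and 15.0 CPM in Ctrl and at 33.5, 32.5 and 32.2 CPM in cKO, in replicate order. All cKO libraries were about level and above all Ctrl libraries (log2 difference 1.05, standard error 0.12, limma adjusted p 0.0177). Lyst, which regulates lysosome size and is mutated in Chediak-Higashi syndrome, was at 39.8, 56.4 and 40.8 CPM in Ctrl and 102, 148 and 80.3 CPM in cKO. It passed with the block only (log2 difference 1.23, limma adjusted p 0.136 without the block and 0.000556 with it). The most abundant genes of this list, the actin regulator Coro1a and the granule-priming factor Unc13d, had log2 differences of 0.027 and -0.11 and did not pass.

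The list of protease inhibitors held 6 tested serpins, of which 0 passed without the block and 3 rose with it, against 1.24% of all tested genes with the block, while 5 of the 6 were higher in cKO without overlap between the groups, against 3.89% of all tested genes. The median log2 difference of this list was 0.79. Of these 5, Serpinb1a, Serpinb6b, Serpinb9 and Serpinb9b all lie on chromosome 13 between bases 32842092 and 33041884. They thus do not stand for separate loci, and whether they changed together was not tested. Serpinb9, the inhibitor of granzyme B that protects killer cells from their own protease, was at 176, 159 and 161 CPM in Ctrl and 253, 275 and 339.98 CPM in cKO. Its log2 difference was 0.79 with a limma adjusted p of 0.0591 without the block and 0.00513 with it. Serpina3g, an inhibitor of cysteine cathepsins, had 73.1, 70.3 and 52.0 CPM in Ctrl against 115, 105 and 99.9 CPM in cKO libraries (limma adjusted p 0.150 and, with the block, 0.00634). Serpinb6b was at 68.2, 67.6 and 75.4 CPM in Ctrl and 103, 108 and 160.3 CPM in cKO (0.2198 and, with the block, 0.00725, both limma adjusted p). Each of these 3 genes was thus higher in every cKO library. Serpinb and Serpina3 genes have close paralogs between which reads may have been split or dropped, so their values are uncertain.

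Of the processing proteases and granule contents, 0 of 9 tested passed limma with or without the block. At an unadjusted limma p under 0.05, 1 of the 9 passed, against 6.02% of all tested genes. Ctsc, the cathepsin that activates granzymes, was at 261, 224 and 229 CPM in Ctrl and 167, 177 and 195 CPM in cKO, a separation that did not pass with limma (adjusted p 0.285 without and 0.0750 with the block). Ctsc is named after its values were seen. The most abundant genes of the list, Ctsd and Calr, had log2 differences of -0.19 and 0.17. Of the other granzymes 3 of 7 were in the table and 2 were tested. Gzmc had a Ctrl mean of 20.2 ± 4.51 and a cKO mean of 15.1 ± 1.54 CPM (SD, n = 3 each), Gzmm of 1.76 ± 1.08 and 2.43 ± 1.003 CPM, and neither passed. Gzmb, Gzmc and Gzmd belong to a cluster of related genes, which could have split reads between them.

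Of all tested genes, 0.204% rose and 0.459% fell without the block, and 1.24% rose and 1.64% fell with it. Among other TNF-family ligands, 1 of 8 tested rose and 0 fell, with or without the block. This was Tnfsf14 (LIGHT), at 44.6, 47.4 and 47.1 CPM in Ctrl and 87.1, 73.7 and 92.0 CPM in cKO, in replicate order. It was higher in every cKO library (log2 difference 0.84, standard error 0.11, limma adjusted p 0.0292), opposite in sign to Fasl and Tnfsf10. The abundant Ltb and Cd40lg had log2 differences of 0.10 and -0.12 and did not pass. Among death receptors and their signalling genes 1 of 13 rose and 0 fell, with or without the block, beside the same shares of all tested genes. Tnfrsf25 (DR3), a death-domain receptor known in T cells mainly for costimulation, was at 56.9, 50.2 and 55.3 CPM in Ctrl and 144, 143 and 139 CPM in cKO. It rose by 1.38 on the log2 scale (standard error 0.085, limma adjusted p 0.00215). The abundant Casp8, the initiator caspase, was at 251 ± 12.3 and 297 ± 33.0 CPM (SD, n = 3 each), separate between the groups but not past the test. Tnfrsf1b had a log2 difference of -0.11 and did not pass.

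Leaving out any 1 library other than cKO replicate 3 ended the calls of Stx11 and Tnfsf14, with limma adjusted p values from 0.0379 to 0.122 and from 0.0469 to 0.161 over the 6 such fits. Tnfsf14 also missed the threshold under edgeR without the block and limma-voom, with adjusted p values up to 0.080. Tnfrsf25 passed in all 6 of the fits without 1 library (limma adjusted p 0.00406 to 0.0230).

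Transcription factors tied to the cytotoxic program gave 0 of 13 tested without the block, where 4 had an unadjusted limma p under 0.05 (6.02% of all tested genes), and with the block 2 rose and 1 fell (1.24% and 1.64%). Stat4, which carries the interleukin-12 signal, had 180, 159 and 149 CPM in Ctrl against 238, 236 and 214 CPM in cKO libraries (limma adjusted p 0.141, and 0.0122 with the block). Hopx, a homeodomain protein of effector T cells, was at 247 ± 31.3 and 340.5 ± 29.8 CPM (SD, n = 3 each; limma adjusted p 0.319, and 0.0268 with the block). Zfp683 (Hobit), a factor of tissue-resident lymphocytes, was at 207, 223 and 216 CPM in Ctrl and 151, 143 and 97.2 CPM in cKO, lower in all 3 pairs (limma adjusted p 0.227, and 0.0167 with the block). The most abundant genes of this list, Id2 and Tbx21, did not pass, with log2 differences of -0.045 and 0.28.

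**Figure D4:**
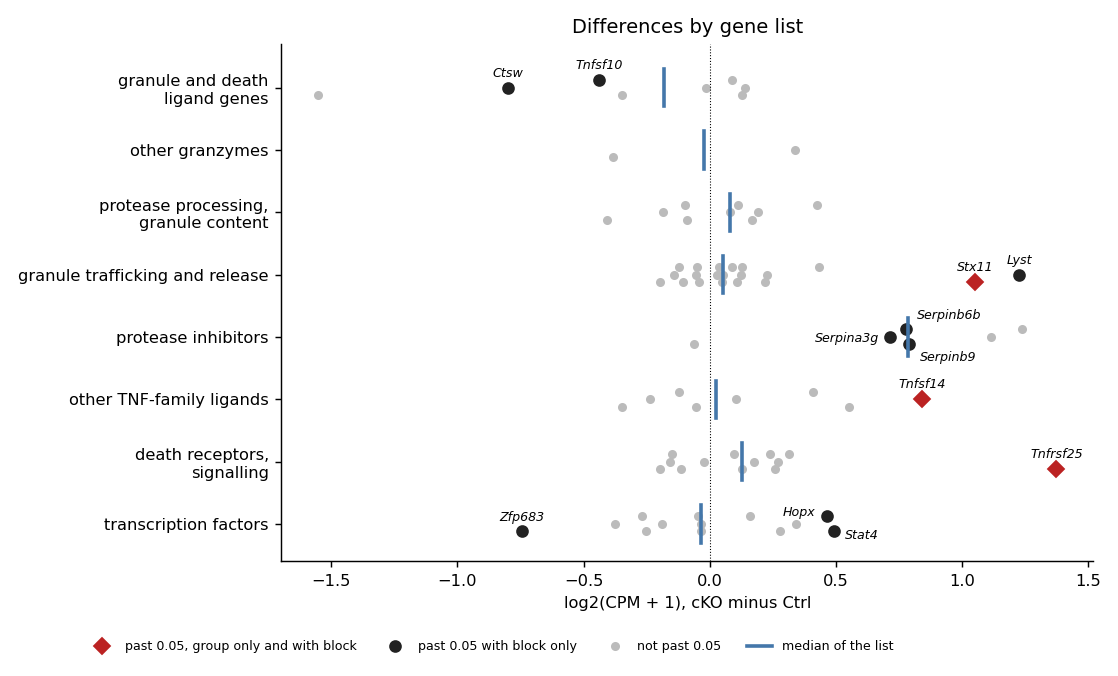
Difference in log2(CPM + 1), cKO minus Ctrl, of the tested genes of each list, 1 point a gene, the 8 tested members in the top row, with the median of the list as a blue bar; red diamonds passed in both limma fits, black points with the replicate block only and grey points in neither. The serpin median of 0.79 lies farthest from 0, and Tnfrsf25 at 1.38 is the highest point.

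**Figure D5:**
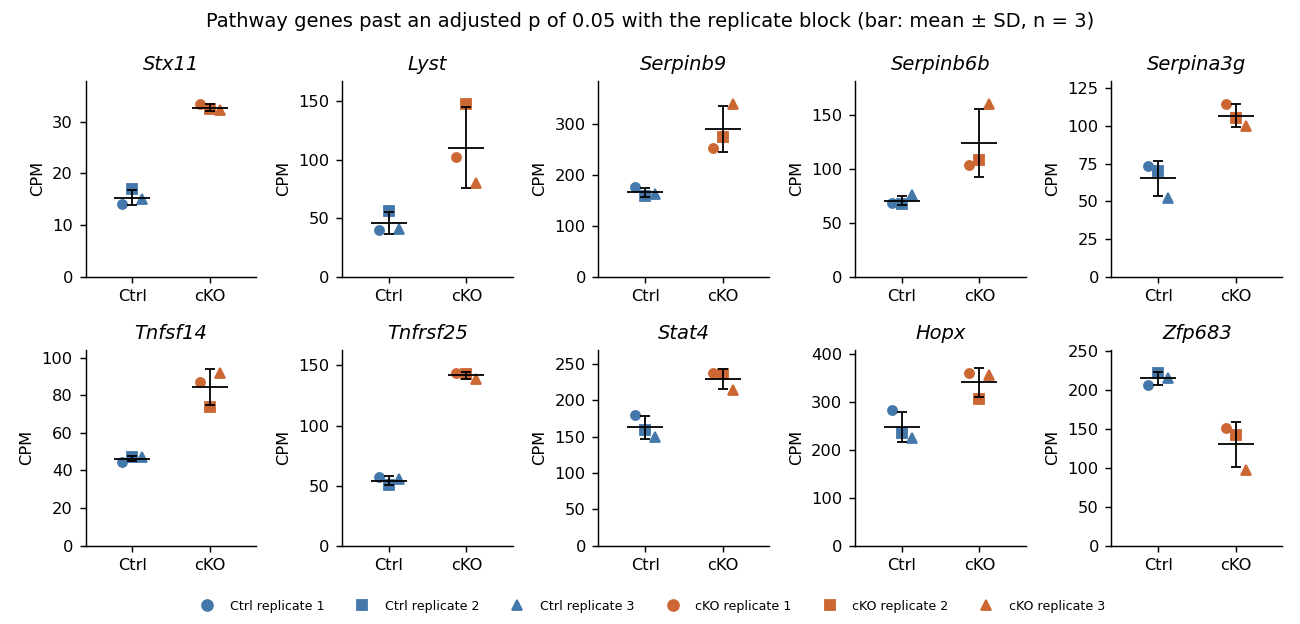
CPM (linear axis from 0) of the 10 pathway genes past an adjusted p of 0.05 with the replicate block. Points are libraries marked by replicate number and bars the mean and SD. Groups are separate in all 10 genes, with Zfp683 lower and the other 9 higher in cKO. Of all tested genes 11% are separate in either direction, but the 10 were picked by their difference in these same libraries, so their separation is no further result.

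The labelled cell type was checked against its markers. All 7 iNKT1 markers were in the table, with a summed level of 5184 to 6616 CPM in Ctrl and 6141 to 8056 CPM in cKO, most of it Il2rb (2357 to 3521 and 2948 to 4383 CPM), which passed limma as higher with the block only (adjusted p 0.0166). Xcl1, a chemokine gene, was the only iNKT1 marker past limma with group as the only term. It was at 164 to 212 CPM in Ctrl and 85.7 to 98.5 CPM in cKO, 50.5% of the Ctrl mean (limma adjusted p 0.0281, with the block 0.00147), and its call was lost whichever library was left out (6 fits; limma adjusted p 0.0587 to 0.147). Of 11 marker lists, the summed level was higher in every cKO library for 2, NK cells (225 to 277 CPM in Ctrl, 327 to 343 CPM in cKO) and CD8 T cells (4.44 to 4.79 and 6.54 to 7.56 CPM), and the sums of the other 9 overlapped. Among single tested genes 3.89% were higher without overlap, and no such share was computed for sums. The CD8 list held only Cd8a (0.650 to 2.42 CPM in Ctrl, 2.24 to 3.85 CPM in cKO) and Cd8b1 (2.02 to 3.89 and 3.27 to 4.72 CPM). Each of them was low, overlapped between the groups and did not pass limma with or without the block. Both are also in the double-positive thymocyte list, whose sum overlapped. The largest part of the NK sum was Klre1, at 111 to 159 CPM in Ctrl and 195 to 211 CPM in cKO, and Klre1 and Irf8 were the 2 genes of that list past limma with the block, both higher. Other genes of the list had lower cKO means and did not pass limma: Klra4 was at 71.7% of the Ctrl mean and lower in all 3 pairs, Klra8 at 78.0% and Gzmc, which is also among the granzymes above, at 74.6%. The NK-defining genes Eomes and Ncr1 were at most 1.39 and 2.28 CPM in any library, with cKO means at 96.6% and 109% of Ctrl, and Kit was at 0 in both replicate 3 libraries. Of the 9 mast cell, basophil and neutrophil markers 1 was in the table, Cpa3, at most 5.45 CPM. No marker list had a lower sum in every cKO library. The part of these cells in the levels of the cytotoxic and pathway genes above was not tested.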

How the data were processed

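RNA-seq of 3 Ctrl and 3 cKO libraries was deposited as 1 table. Its per-library values are CPM computed by the authors, per the file headers. The submitters' processing notes name Trimmomatic 0.33, STAR 2.5.2, HTSeq 0.6.1, edgeR and the build mm10, with no parameters and no word on strand. The authors also deposited, per the file headers, a p-value with its adjusted p-value, a log2 fold change, a likelihood-ratio score, an average log2 CPM, marks of called genes and a gene length. Columns named WT and KO were taken as Ctrl and cKO by replicate number and genotype. CPM values were whole multiples of 1 read within 0.01 of a read for 100% of genes, so the reads behind them were recovered.

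The design named limma (version 3.58.1) for CPM values. It was fitted on log2(CPM + 1) of 15691 genes (mean over all libraries 1 CPM or more), group as the only term, with trend and robust moderation and Benjamini-Hochberg adjustment over all tested genes at 0.05. Differences on this scale understate changes of low genes. Alternatives used edgeR 4.0.16, DESeq2 1.42.0 and limma-voom on recovered reads. Limma with and without the block, and edgeR, limma-voom and DESeq2 without it, were also run on simulated reads. The simulation held no replicate effect, so it cannot show how the fits handle the replicate 3 libraries. The members and lists were chosen with earlier results of these data known. Motifs were searched in the 250 bases before each start, without the 50 after it that the design had included. Named were all 9 genes and, per pathway list, those past the threshold in either limma fit and the 2 most abundant.

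Groups share replicate numbers 1 to 3. Deviations from the group mean correlated between same-numbered libraries at 0.855, 0.687 and 0.924, each over 0.1, so the numbers were taken to pair the libraries. This pairing comes from the data, not the labels, and mostly separates replicate 3 from the others: Ctrl replicate 2 correlated better with cKO replicate 1 (0.718) than with its own number. Blocked values stand beside results whose call they change.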

Additional observations from a re-analysis of the deposited data

How the results depend on the processing

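With group as the only term 0 of the 8 tested genes passed. The number was 2 with the replicate block, 1 with the block and TMM scaling, 2 under edgeR with the block, 2 under DESeq2, 1 (Ctsw) with a minimum mean of 5 CPM, where fewer genes were tested, and 1 (Ctsw) in replicates 1 and 2 alone. It was 0 whichever library was left out (6 fits), and 0 under the other 7 alternatives. Pathway genes past the threshold numbered 3, and 10 with the replicate block, 12 with the block and TMM scaling, 10 under edgeR with the block, 13 under DESeq2 and 10 in replicates 1 and 2 alone, but 2 under edgeR without the block and 2 under limma-voom, both without Tnfsf14. Leaving out 1 library gave from 1 to 5 (5 without cKO replicate 3, and 1 without any other library). The cause was not tested except where stated. Over all genes, 104 passed without and 451 with the block, 552 under DESeq2, 41 under edgeR, 61 under limma-voom and 296 in replicates 1 and 2.

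Ctsw passed in 6 of 13 alternatives, with log2 differences from -0.80 to -0.60 and adjusted p from 1.68477e-07 (DESeq2) to 0.126, and in 0 of 6 fits that left out 1 library. Tnfsf10 passed in 3 of 13, with log2 differences from -0.44 to -0.39. Fasl and Gzma passed in none, and all 4 kept their sign in every fit. Genes near 0 changed sign. Nkg7 was at 0.0297 under TMM scaling (the replicate block does not move it), 0.0133 under upper quartile scaling, 0.0597 under edgeR, 0.0293 under edgeR with the block, 0.0660 under DESeq2 and 0.0302 under limma-voom. In replicates 1 and 2 alone Srgn was at -7.2e-05. Over the fits that left out 1 library, Nkg7 ran from -0.17 to 0.083, Gzmb from -0.11 to 0.32, Prf1 from -0.00673 to 0.28 and Srgn from -0.11 to 0.30. Scaling alternatives moved the median of all genes to between -0.018 and -0.0077, from -0.038. Depth limits Gzmk, at 8 to 72 reads.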
